A study of Mus musculus with 4 samples.

Results

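The stress keratins *Krt6a*, *Krt6b*, *Krt16* and *Krt17* were followed in dorsal skin of mice with imiquimod-induced dermatitis. They were chosen by name, as the keratins known to be induced in wounded and psoriatic epidermis, and all 4 were found among the 24346 gene symbols of the deposited expression values. Male C57BL/6 mice, 8 weeks old at the start, were fed for 3 weeks a high-fat, high-cholesterol, high-sucrose diet with bile salt, called the NASH diet because it produces nonalcoholic steatohepatitis. The diet of the 7KC-IMQ group also held 7-ketocholesterol (7KC), an oxidized derivative of cholesterol, and that of the Cont-IMQ group did not. Imiquimod (IMQ), which activates Toll-like receptor 7, was then put on the skin as a 5% cream in both groups, and RNA was sequenced after 1 day. Each group had 2 libraries. Because every library came from skin treated with IMQ after the NASH diet, the values compare dietary 7KC within IMQ dermatitis and not treated with untreated skin. The labels do not say whether the replicates came from different animals, so p-values measure only the spread between these libraries.

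Keratins form the intermediate filaments of epithelial cells, and each filament is built from obligate pairs of a type II and a type I keratin. In resting skin between the hair follicles, basal keratinocytes make *Krt5* with *Krt14*, and suprabasal cells make *Krt1* with *Krt10*. *Krt6a* and *Krt6b* (type II) and *Krt16* and *Krt17* (type I) are normally found mainly in hair follicles, nails and other appendages. They are switched on in the epidermis after injury and in psoriasis, where they serve as markers of activated keratinocytes, and cytokines such as IL-17 and IL-22 and ligands of the EGF receptor are known inducers.

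The genes lie in both keratin clusters of the mouse genome, all on the minus strand (GRCm38, GENCODE annotation). *Krt6b* (ENSMUSG00000023041.7, chr15:101676023-101680287) and *Krt6a* (ENSMUSG00000058354.7, chr15:101689910-101694307) are neighbours in the type II cluster, 9622 bases apart, with 9 exons each. *Krt16* (ENSMUSG00000053797.10, chr11:100246091-100248902) and *Krt17* (ENSMUSG00000035557.9, chr11:100256217-100261029) are neighbours in the type I cluster, 7314 bases apart, with 8 exons each. The coding sequences of *Krt6a* and *Krt6b* were 97.8% identical, with 37 differing bases among 1659 aligned. *Krt16* and *Krt17* were 75.8% identical, and a type II with a type I member 57.3% to 58.2%.

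Because the libraries were read in 75-base single-end mode, the sequences below show where a read can be given to either *Krt6* gene. Within 1 exon, the longest stretch common to *Krt6a* (chr15:101693936-101694215) and *Krt6b* (chr15:101679911-101680190) has 280 coding bases of exon 1, so a read from within it fits both genes equally:
*Krt6a* and *Krt6b*, exon 1: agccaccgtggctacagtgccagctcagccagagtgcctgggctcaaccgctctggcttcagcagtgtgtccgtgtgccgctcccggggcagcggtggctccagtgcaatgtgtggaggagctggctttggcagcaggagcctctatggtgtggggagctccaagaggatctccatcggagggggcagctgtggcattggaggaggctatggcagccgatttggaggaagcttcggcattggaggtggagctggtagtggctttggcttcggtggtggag
The most different 75 coding bases lie in exon 4 (*Krt6a* chr15:101692484-101692558 and *Krt6b* chr15:101678303-101678377), where capitals mark the 12 differing bases:
*Krt6a*, exon 4: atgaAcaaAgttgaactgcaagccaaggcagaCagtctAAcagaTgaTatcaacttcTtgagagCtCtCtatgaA
*Krt6b*, exon 4: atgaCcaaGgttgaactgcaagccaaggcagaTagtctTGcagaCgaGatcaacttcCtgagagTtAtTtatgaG
Of the 1556 coding windows of read length, 797 (51.2%) were identical between the genes and 80.2% differed at no more than 2 bases. Over the whole transcripts, 42.3% of the 75-base windows of *Krt6a* and 39.6% of those of *Krt6b* occurred in the transcripts of another gene. Most of these lay in the other *Krt6* gene and the rest in *Krt5* and in the gene models *Gm5414* and *Gm5478* of the same cluster. How reads that fit several genes were shared out is not given in the sources used here, so the single levels of *Krt6a* and *Krt6b* are uncertain and their sum is given beside them.

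The type I pair can be told apart more easily. Within 1 exon, the longest stretch common to *Krt16* (chr11:100246625-100246679) and *Krt17* (chr11:100257448-100257502) has 55 coding bases of exon 6, which is shorter than a read:
*Krt16* and *Krt17*, exon 6: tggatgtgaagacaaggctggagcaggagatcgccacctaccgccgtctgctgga
The most different stretch of read length within 1 exon lies in exon 1 (*Krt16* chr11:100248545-100248619 and *Krt17* chr11:100260707-100260781), with the 30 differing bases in capitals:
*Krt16*, exon 1: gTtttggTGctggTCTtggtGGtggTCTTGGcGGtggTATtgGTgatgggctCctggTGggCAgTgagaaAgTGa
*Krt17*, exon 1: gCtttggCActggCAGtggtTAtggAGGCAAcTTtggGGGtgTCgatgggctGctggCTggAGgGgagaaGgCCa
No 75-base window of *Krt17* occurred in another gene. For *Krt16*, 28.9% did: 335 of its 1491 windows were in the pseudogene *Gm11597* and 96 were in *Krt14*, so its level is less certain than that of *Krt17*.

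All 4 stress keratins had higher levels in the 7KC-IMQ libraries than in the Cont-IMQ libraries, from 1.50-fold for *Krt17* to 3.05-fold for *Krt6b*. Levels are given as FPKM, the number of sequenced fragments scaled to exon length and to all mapped fragments, which allows genes of different length to be compared. For each of them the library with the highest level was 7KC-IMQ replicate 2, and 0 of the 4 differences passed the test across all genes.

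*Krt6a* is the main inducible partner of *Krt16* in wounded epidermis. Values are given for replicate 1 and then replicate 2 of a group. *Krt6a* had 385 and 542 FPKM in Cont-IMQ, and reached 741 and 1488 FPKM in 7KC-IMQ. The groups did not overlap, but 7KC-IMQ replicate 1 was closer to the Cont-IMQ libraries than to its own replicate. The group means were 463 ± 111 and 1115 ± 528 FPKM (SD, n = 2), a 2.41-fold difference, while the 7KC-IMQ replicates differed 2.01-fold. The difference in log2(FPKM + 1) was 1.20 (SE 0.38, limma, Benjamini-Hochberg adjusted p = 0.365).

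*Krt6b*, the near-identical neighbour, had 240 and 347 FPKM in Cont-IMQ and 539 and 1251 FPKM in 7KC-IMQ. It had the lowest level of the 4 genes in every library and the widest separation between the groups. The means were 294 ± 75.9 and 895 ± 503 FPKM (SD, n = 2), a 3.05-fold difference, and the 7KC-IMQ replicates differed 2.32-fold. On the log2(FPKM + 1) scale the difference was 1.51 (SE 0.44, limma, Benjamini-Hochberg adjusted p = 0.356). The sum of *Krt6a* and *Krt6b* depends less on how their common reads were split, provided that none was dropped or counted for both genes. Reads that also fit *Krt5* can still affect it. The sum was 625 and 889 FPKM in Cont-IMQ and 1280 and 2740 FPKM in 7KC-IMQ. The log2 of this sum differed by 1.33, and by 0.78 without 7KC-IMQ replicate 2.

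*Krt16*, the type I partner of *Krt6* and a classical marker of psoriatic epidermis, had 1159 and 1333 FPKM in Cont-IMQ and 2035 and 3368 FPKM in 7KC-IMQ. Here the lowest 7KC-IMQ library stood 1.53-fold above the highest Cont-IMQ library, compared with 1.55-fold for *Krt6b*, 1.37-fold for *Krt6a* and 1.23-fold for *Krt17*. The means were 1246 ± 123 and 2701 ± 943 FPKM (SD, n = 2), a 2.17-fold difference. The difference in log2(FPKM + 1) was 1.07 (SE 0.27, limma, Benjamini-Hochberg adjusted p = 0.356).

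*Krt17*, a type I keratin known to take part in growth of injured epithelium and in the psoriatic immune response, had 1436 and 1576 FPKM in Cont-IMQ and 1935 and 2590 FPKM in 7KC-IMQ. It was the most abundant of the 4 genes in both Cont-IMQ libraries and had the smallest difference. The means were 1506 ± 99.3 and 2262 ± 463 FPKM (SD, n = 2), a 1.50-fold difference. On the log2(FPKM + 1) scale it was 0.57 (SE 0.18, limma, Benjamini-Hochberg adjusted p = 0.365).

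**Figure D1:**
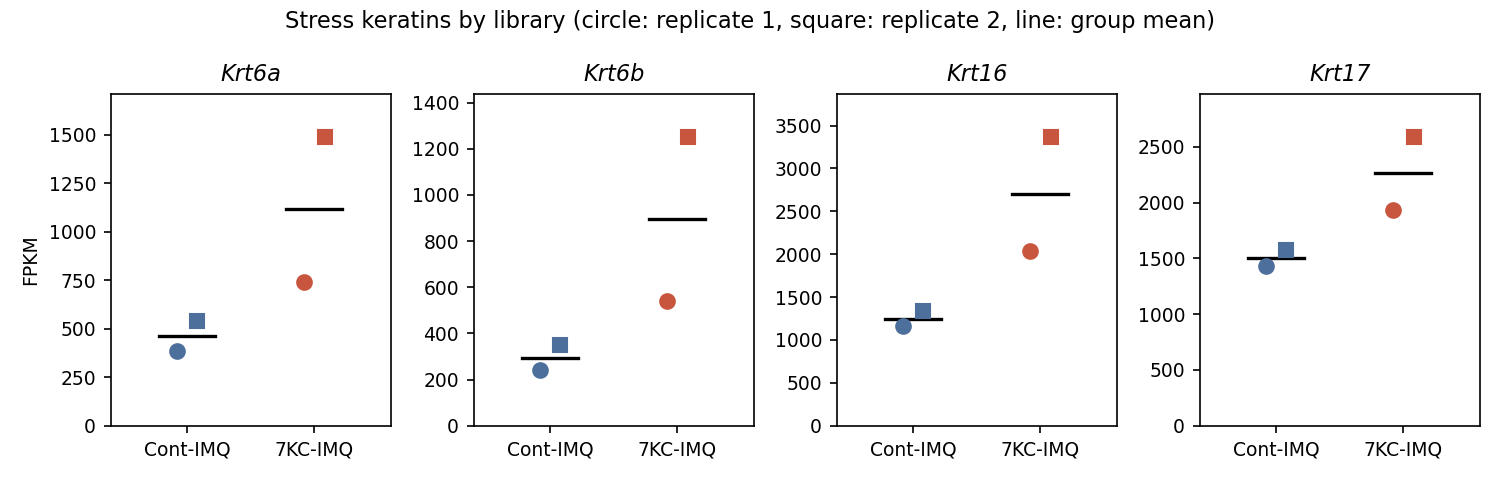
Level of each stress keratin in FPKM (vertical axis, from 0) in the Cont-IMQ (blue) and 7KC-IMQ (red) libraries. Circles are replicate 1, squares replicate 2, and lines the group means of 2 libraries; every red point lies above both blue points of its gene, and the red squares lie far above the red circles, as for *Krt6b* at 1251 and 539 FPKM.

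By the adjusted p of limma, 0 of the 4 members passed the threshold, against 1 of 15896 genes tested (0.00629%). By the unadjusted p under 0.05 of the same fit, 4 of 4 members were higher in 7KC-IMQ, against 7.50% of all genes. That count was 0 without Cont-IMQ replicate 1, 3 without Cont-IMQ replicate 2, 2 without 7KC-IMQ replicate 2, and 0 in a fit with no filter on low values. All 4 were also among the genes whose 7KC-IMQ libraries both lay above both Cont-IMQ libraries, which held for 23.9% of genes tested. In addition, all 4 had the same order of libraries (Cont-IMQ 1, Cont-IMQ 2, 7KC-IMQ 1, 7KC-IMQ 2, from low to high), found in 7.64% of genes. The median difference of the 4 members was 1.14 in log2(FPKM + 1), beside -0.01 for all genes tested. The study also displays keratin genes from the same libraries, so the counts are not independent evidence of a direction. By quantitative PCR of dorsal skin, the study separately reports *Krt17* as significantly upregulated, in the same direction as here. Its probe list also holds *Krt6* and *Krt16*, for which its text names no result. Whether the PCR samples include those sequenced is not stated.

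The members belong to the most abundant genes of the skin, where higher levels in 7KC-IMQ without overlap were more common than among all genes. By mean level they ranked 46 (*Krt16*), 48 (*Krt17*), 147 (*Krt6a*) and 177 (*Krt6b*) among the 15896 genes tested. Among the 923 genes with a mean of at least 100 FPKM, the 7KC-IMQ libraries lay above in 425 (46.0%) and the order of libraries was that of the members in 143 (15.5%). An increase of this size was less common. Of these 923 genes, 58 were higher in 7KC-IMQ by at least 0.5 on the log2(FPKM + 1) scale. By at least 1, 26 were higher, among them *Krt6a*, *Krt6b* and *Krt16*. Decreases of that size were not counted. The median difference of the 923 genes was 0.10. By size of increase *Krt6b* ranked 39, *Krt6a* 67, *Krt16* 85 and *Krt17* 278 among all genes tested.

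**Figure D2:**
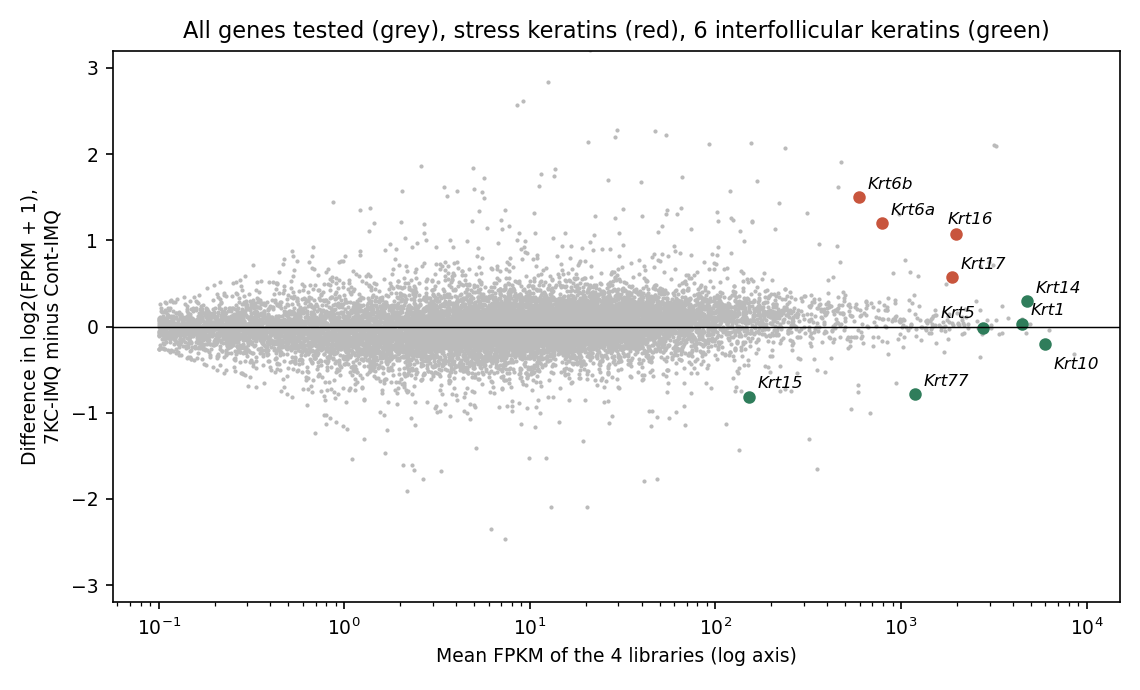
Mean FPKM of the 4 libraries (horizontal, log axis) and difference in log2(FPKM + 1), 7KC-IMQ minus Cont-IMQ (vertical), of the genes tested (grey), the stress keratins (red) and 6 keratins of the epidermis between follicles (green). The red points lie at 0.57 to 1.51, above *Krt5*, *Krt14*, *Krt1* and *Krt10* at similar or higher levels, and 13 genes lie outside the vertical range.

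The size of each difference depended in part on 7KC-IMQ replicate 2. Without that library the differences in log2(FPKM + 1) were 0.70 for *Krt6a*, 0.90 for *Krt6b*, 0.71 for *Krt16* and 0.36 for *Krt17*. Without 7KC-IMQ replicate 1 they were 1.70, 2.11, 1.44 and 0.78 for the same genes.

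Sampling of reads was a small part of this spread. From the spacing of low values, the depth was estimated at about 15000000 to 16200000 reads per library, which gives about 7414 to 68833 reads for each member and library. The counting error at these numbers is 0.381% to 1.16% of a value. The summed FPKM of a library was 630272 to 702218, highest in 7KC-IMQ replicate 2, and 7185 to 7388 symbols were listed at 0.

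Within the stress keratins the balance also differed between the groups. In the Cont-IMQ libraries the order of levels was *Krt17*, *Krt16*, *Krt6a* and *Krt6b*, with no overlap of neighbours. In 7KC-IMQ, *Krt16* stood above *Krt17* in each library, but the ranges of the libraries overlapped, as did those of *Krt6a* and *Krt6b*. The ratio of *Krt16* to *Krt17* was 0.807 and 0.846 in Cont-IMQ and 1.05 and 1.30 in 7KC-IMQ. The share of *Krt6b* in the summed *Krt6a* and *Krt6b* was 38.4% and 39.1% in Cont-IMQ and 42.1% and 45.7% in 7KC-IMQ, a difference of 5.16 percentage points that depends on how common reads were assigned. Without 7KC-IMQ replicate 2 it was 3.39 percentage points. The type II to type I ratio (*Krt6a* plus *Krt6b* over *Krt16* plus *Krt17*) was 0.241 and 0.306 in Cont-IMQ and 0.323 and 0.460 in 7KC-IMQ, so type I RNA was in excess in every library. The Cont-IMQ replicate 2 and 7KC-IMQ replicate 1 ratios lay close together. With 2 against 2 libraries the two-sided exact permutation test cannot give a p below 0.333, and each ratio and sum that did not overlap between groups reached that value.

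The stress keratins were next set against the constitutive keratins of the epidermis, which gives a level within keratinocyte RNA. *Krt5*, the basal type II keratin, had 3062 and 2544 FPKM in Cont-IMQ and 2783 and 2730 FPKM in 7KC-IMQ. The difference was -0.02 in log2(FPKM + 1), with overlapping groups. *Krt14*, its type I partner, had 4409 and 4132 FPKM in Cont-IMQ and 4807 and 5700 FPKM in 7KC-IMQ, with a difference of 0.29 and no overlap. Of the suprabasal pair, *Krt1* had 5867 and 3191 FPKM in Cont-IMQ and 4057 and 4845 FPKM in 7KC-IMQ. *Krt10* had 8444 and 4597 FPKM in Cont-IMQ and 5283 and 5553 FPKM in 7KC-IMQ. In both suprabasal genes Cont-IMQ replicate 1 was the highest library and the groups overlapped.

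The summed stress keratins were 3220 and 3799 FPKM in Cont-IMQ and 5250 and 8698 FPKM in 7KC-IMQ, a difference of 0.95 in log2 of the sum and of 0.59 without 7KC-IMQ replicate 2. Relative to *Krt5* plus *Krt14* they amounted to 0.431 and 0.569 in Cont-IMQ and to 0.692 and 1.03 in 7KC-IMQ, so in 7KC-IMQ replicate 2 they exceeded the basal pair. The log2 of this ratio differed by 0.77 between the groups, and by 0.48 without 7KC-IMQ replicate 2. Relative to *Krt1* plus *Krt10* the ratios were 0.225 and 0.488 in Cont-IMQ and 0.562 and 0.836 in 7KC-IMQ. That log2 ratio differed by 1.05, and by 0.49 without Cont-IMQ replicate 1, the library with the high *Krt1* and *Krt10*. As a share of the FPKM of 48 keratin genes, the stress keratins made up 11.4% and 16.8% in Cont-IMQ and 20.8% and 29.0% in 7KC-IMQ. Type II members alone (*Krt6a* plus *Krt6b*) were 0.204 and 0.350 of *Krt5* in Cont-IMQ, and 0.460 and 1.00 of *Krt5* in 7KC-IMQ.

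**Figure D3:**
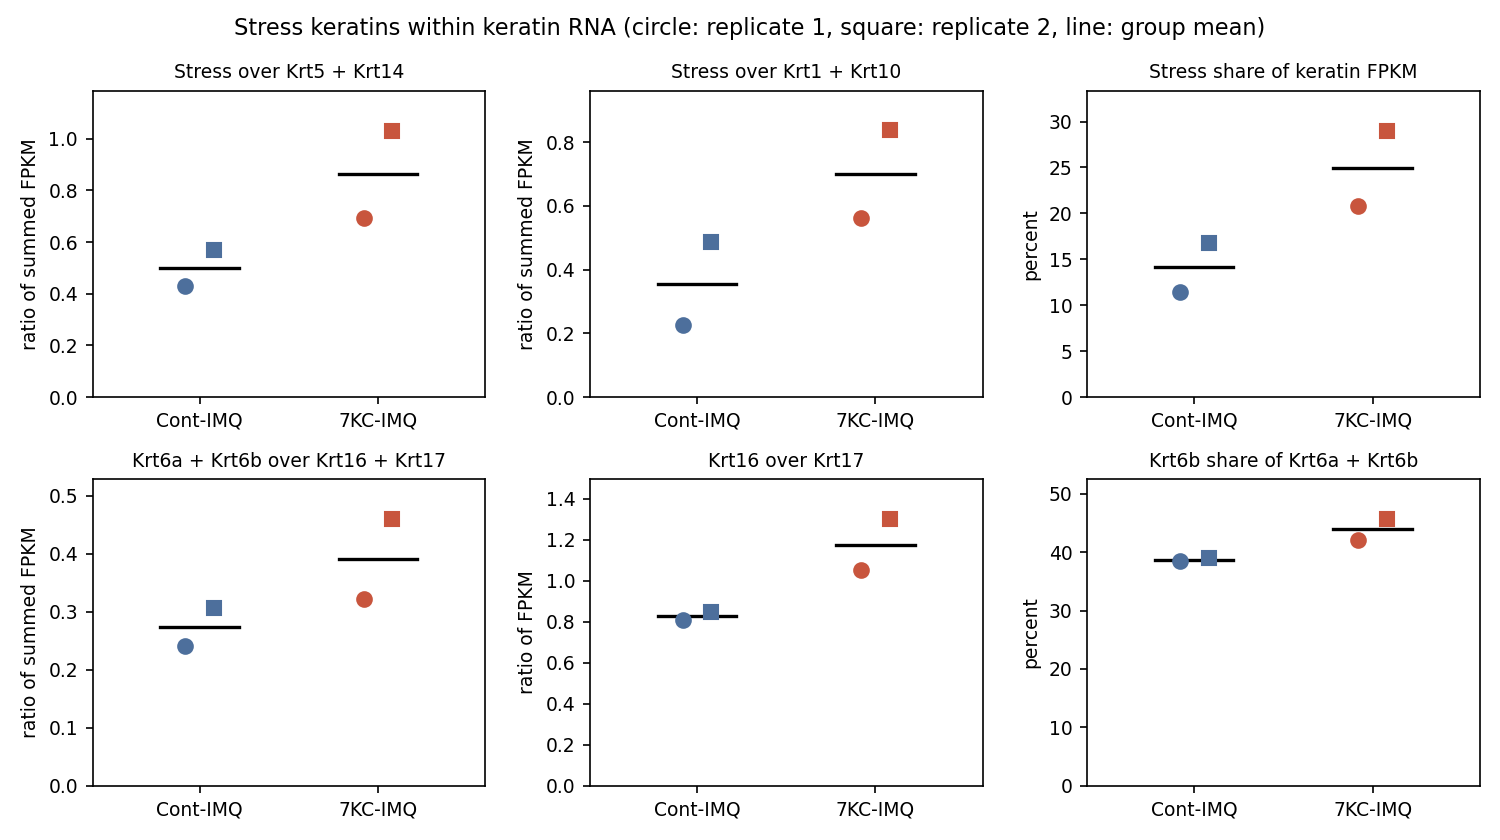
Ratios and shares of summed FPKM (vertical axes, from 0) in the Cont-IMQ (blue) and 7KC-IMQ (red) libraries, with circles for replicate 1, squares for replicate 2 and lines for group means. In each panel both red points lie above both blue points, and the stress share of keratin FPKM runs from 11.4% in Cont-IMQ replicate 1 to 29.0% in 7KC-IMQ replicate 2.

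Most other keratins did not have the direction of the stress keratins: the difference was above 0 in 3 of 10 keratins of the epidermis between follicles, 5 of 22 of the follicle and hair shaft, and 2 of 9 of simple and mucosal epithelia. Of the 10 tested keratins of the epidermis between follicles, 0 passed the adjusted threshold of limma, 0 were higher and 3 lower at an unadjusted p under 0.05 (5.47% of all genes tested were lower), and the median difference was -0.09 in log2(FPKM + 1). Without overlap, 2 were higher (*Krt14* and *Krt79*) and 3 lower (*Krt15*, *Krt77* and *Krt80*), near the 23.9% higher and 22.9% lower of all genes. *Krt15*, a keratin of basal cells and of bulge stem cells of the follicle, had 216 and 172 FPKM in Cont-IMQ and 123 and 96.9 FPKM in 7KC-IMQ. The difference was -0.81 (SE 0.17, limma, Benjamini-Hochberg adjusted p = 0.352). *Krt77*, a type II keratin of suprabasal epidermis and sweat glands, had 1475 and 1488 FPKM in Cont-IMQ and 1111 and 669 FPKM in 7KC-IMQ, a difference of -0.78 (SE 0.26, limma, Benjamini-Hochberg adjusted p = 0.365). The difference was -0.34 in *Krt80* and 0.33 in *Krt79*. *Krt79* was placed in this list by name, and which part of the skin made it was not measured. Of 9 tested keratins of simple and mucosal epithelia, 5 were lower and 1 higher without overlap (22.9% and 23.9% of all genes), with *Krt23* (179 and 164 FPKM in Cont-IMQ, 136 and 117 FPKM in 7KC-IMQ, a difference of -0.44) among those lower. Most of the other genes of this list were below 1 FPKM.

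Since *Krt6*, *Krt16* and *Krt17* are also made in the hair follicle, the 22 keratins of the follicle and hair shaft were examined beside them. They were low in Cont-IMQ replicate 1 and high in Cont-IMQ replicate 2, with summed levels of 127 and 1587 FPKM, and lay between these in 7KC-IMQ, at 472 and 419 FPKM. *Krt71*, of the inner root sheath, had 34.5 and 503 FPKM in Cont-IMQ and 135 and 112 FPKM in 7KC-IMQ. *Krt75*, which is paired with *Krt16* and *Krt17* in the companion layer of the follicle, had 9.35 and 38.3 FPKM in Cont-IMQ and 18.7 and 17.2 FPKM in 7KC-IMQ. Neither had its highest level where the stress keratins did. Without overlap, 1 of the 22 (*Krt84*, difference 0.56) was higher and 0 were lower, beside 23.9% and 22.9% of all genes. At an unadjusted p under 0.05 of limma, 0 were higher and 0 lower (7.50% and 5.47% of all genes). None (0) passed the adjusted threshold of limma, and the median difference was -0.39. The 12 markers of the growing hair follicle gave summed levels of 88.2 and 767 FPKM in Cont-IMQ and 243 and 211 FPKM in 7KC-IMQ. *Krt71* and *Krt75* are in both lists, and *Krt71* alone made up 503 of the 767 FPKM. The sums of the lists are therefore not independent. Of the 12, 0 were apart between the groups, beside 23.9% higher and 22.9% lower of all genes.

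**Figure D4:**
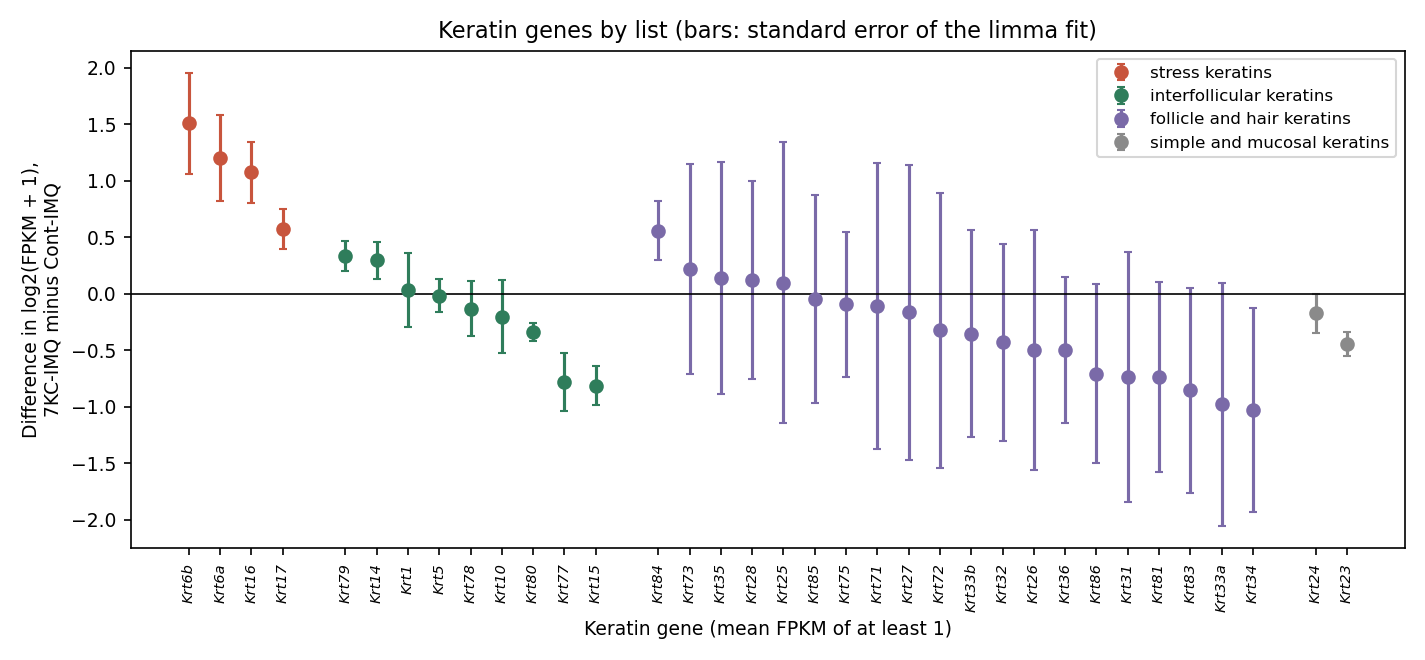
Difference in log2(FPKM + 1), 7KC-IMQ minus Cont-IMQ (vertical axis), of each keratin gene with a mean of at least 1 FPKM, grouped by list and ordered by size, with bars for the standard error of the limma fit. The stress keratins lie at 0.57 to 1.51, and the keratins listed as between follicles at -0.81 to 0.33. The follicle and hair keratins lie mostly below 0 (5 of the 20 shown lie above) with wide bars.

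In whole skin, a higher level can come from more keratinocytes in the sample or from more RNA per cell, and these cannot be told apart. All 12 keratinocyte markers were detected in every library, and they summed to 16537 and 15215 FPKM in Cont-IMQ and 15891 and 17955 FPKM in 7KC-IMQ, with overlapping groups and a median difference of 0.00. Of the 11 markers of proliferating cells, 10 were higher without overlap (23.9% of all genes were higher and 22.9% lower in this way), with summed levels of 278 and 299 FPKM in Cont-IMQ and 360 and 357 FPKM in 7KC-IMQ. They shared the direction of the stress keratins between groups but not the higher level in 7KC-IMQ replicate 2. Sebaceous gland markers were higher without overlap in 6 of 8 and lower in 2, with sums of 726 and 600 FPKM in Cont-IMQ and 822 and 809 FPKM in 7KC-IMQ. Neutrophil markers summed to 20.0 and 24.4 FPKM in Cont-IMQ and 27.8 and 31.7 FPKM in 7KC-IMQ (4 of 7 tested higher and 1 lower without overlap). Most of each sum was *Cxcr2*, with 13.39 and 15.05 FPKM in Cont-IMQ and 20.16 and 23.03 FPKM in 7KC-IMQ. The sums therefore mainly follow this gene. *Ngp*, *Ltf* and *Mpo* were listed at 0 in Cont-IMQ replicate 1 and *Camp* in Cont-IMQ replicate 2. *Elane* was at 0 in 7KC-IMQ replicate 1, and *Ltf* in both 7KC-IMQ libraries. T cell markers summed to 18.4 and 16.6 FPKM in Cont-IMQ and to 14.5 and 11.9 FPKM in 7KC-IMQ (1 of 5 tested higher and 2 lower without overlap). Sums of the macrophage, fibroblast, adipocyte, skeletal muscle and melanocyte lists overlapped between the groups. The part of these lists in the levels of the stress keratins was not tested.

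Known inducers of the stress keratins were then read in the same libraries. Of 19 tested ligands (the IL-17 and IL-1 families, IL-22, IL-6, oncostatin M, TNF and EGF receptor ligands), 11 were higher and 1 lower at an unadjusted p under 0.05 (7.50% and 5.47% of all genes), and 0 passed the adjusted threshold of limma. Interferon gamma was below the level filter and was not tested. The median difference was 0.52 in log2(FPKM + 1). *Il17f*, a cytokine of T helper 17 and gamma delta T cells, had 1.34 and 1.02 FPKM in Cont-IMQ and 5.08 and 6.33 FPKM in 7KC-IMQ, a difference of 1.62. *Il17c*, an IL-17 family member made by keratinocytes, had 8.53 and 8.47 FPKM in Cont-IMQ and 18.4 and 18.2 FPKM in 7KC-IMQ, a difference of 1.02. In 7KC-IMQ the replicates of *Il17c* were nearly equal, while those of *Krt17*, the closest pair among the stress keratins, differed 1.34-fold. *Il6* had 1.78 and 2.54 FPKM in Cont-IMQ and 5.40 and 12.5 FPKM in 7KC-IMQ, a difference of 1.57, with its highest level in the library where the stress keratins were highest. The largest difference in the other direction was in the EGF receptor ligand *Btc*, with 10.3 and 10.9 FPKM in Cont-IMQ and 6.97 and 3.72 FPKM in 7KC-IMQ (-0.92). *Ereg* and *Egf*, with -0.23 and -0.10, overlapped between groups. The other EGF receptor ligands had differences above 0. *Tgfa* (0.52) was higher without overlap, while *Epgn* (0.41), *Hbegf* (0.27) and *Areg* (0.24) overlapped. *Il17a*, singled out here after its values were seen, was low in every library. It had 0.0675 and 0.341 FPKM in Cont-IMQ and 0.821 and 1.44 FPKM in 7KC-IMQ. *Il22*, singled out in the same way, was also low, with 0.148 and 0 FPKM in Cont-IMQ and 0.554 and 1.20 FPKM in 7KC-IMQ.

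Of the 16 receptors of these ligands, 2 were higher and 1 lower at an unadjusted p under 0.05, near the background of 7.50% and 5.47% of all genes. None (0) passed the adjusted threshold of limma, and the median difference was 0.05 in log2(FPKM + 1). *Osmr*, the oncostatin M receptor, had 15.6 and 15.8 FPKM in Cont-IMQ and 23.1 and 24.3 FPKM in 7KC-IMQ, a difference of 0.56. *Il1r1*, the IL-1 receptor, differed by 0.42 and *Il17re*, the receptor chain for IL-17C, by 0.37. The receptor chains for IL-6 and IL-22, *Il6ra* and *Il22ra1*, had -0.35 and -0.28, and the EGF receptor relative *Erbb3* -0.08. *Il22ra1* overlapped between groups, with 15.2 and 9.84 FPKM in Cont-IMQ and 9.92 and 9.97 FPKM in 7KC-IMQ.

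Of the 22 transcription factors listed for keratinocyte activation, 4 were higher and 1 lower at an unadjusted p under 0.05 (7.50% and 5.47% of all genes), 0 passed the adjusted threshold of limma, and the median difference was 0.12. *Stat3*, which carries signals of IL-6 and IL-22, had 81.9 and 68.5 FPKM in Cont-IMQ and 98.1 and 103 FPKM in 7KC-IMQ, a difference of 0.42. *Hif1a*, the hypoxia factor, differed by 0.56 and *Cebpb*, a factor of inflammation and keratinocyte differentiation, by 0.53. *Fos*, an immediate early subunit of AP-1, was lower, with 496 and 546 FPKM in Cont-IMQ and 97.4 and 277 FPKM in 7KC-IMQ (-1.66). *Egr1* (-0.37) was lower without overlap, and *Jun* (-0.20) overlapped. *Fos* was lowest in 7KC-IMQ replicate 1, not in replicate 2, where the stress keratins were highest.

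The proteins that link keratin filaments to desmosomes and hemidesmosomes, or bind them, were lower without overlap in 5 of 12 (22.9% of all genes), higher in 1 (23.9% of all genes) and overlapping in 6. By the unadjusted p under 0.05, 0 were higher and 2 lower (7.50% and 5.47% of all genes), 0 passed the adjusted threshold of limma, and the median difference was -0.08. *Dst*, which anchors filaments at the hemidesmosome, had 41.9 and 37.1 FPKM in Cont-IMQ and 29.7 and 28.2 FPKM in 7KC-IMQ (-0.43). *Eppk1* (epiplakin) had -0.41 and *Plec* (plectin) -0.23. *Sfn* (14-3-3 sigma, which binds *Krt17*), *Ywhae* and the desmosomal plakophilin *Pkp3* differed by 0.13, 0.10 and 0.08.

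The genes whose profile over the 4 libraries was most like the mean profile of the stress keratins were sought among 7095 genes with a mean of at least 10 FPKM. Likeness was the Euclidean distance between log2(FPKM + 1) values centred on each gene's mean, which for the members themselves was 0.127 (*Krt16*) to 0.612 (*Krt17*). The nearest was *Gjb2*, the gap junction protein connexin 26, at a distance of 0.074, with 111 and 142 FPKM in Cont-IMQ and 200.4 and 381 FPKM in 7KC-IMQ. Next was *Gm5416*, a cystatin family gene also named *Csta3*, at 0.137, with 82.7 and 101 FPKM in Cont-IMQ and 161 and 286 FPKM in 7KC-IMQ. *Has3*, a hyaluronan synthase, followed at 0.249 with 12.3 and 17.6 FPKM in Cont-IMQ and 22.1 and 36.0 FPKM in 7KC-IMQ. *Gsta4*, a glutathione transferase, lay at 0.257 and *Gjb6*, connexin 30, at 0.258. *Gsta4* had 28.6 and 31.2 FPKM in Cont-IMQ and 46.3 and 101 FPKM in 7KC-IMQ. *Gjb6* had 14.9 and 17.2 FPKM in Cont-IMQ and 21.1 and 44.8 FPKM in 7KC-IMQ. All 5 had their highest level in 7KC-IMQ replicate 2, as the search for this profile fixes, and 4 libraries are few for ranking profiles.

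**Figure D5:**
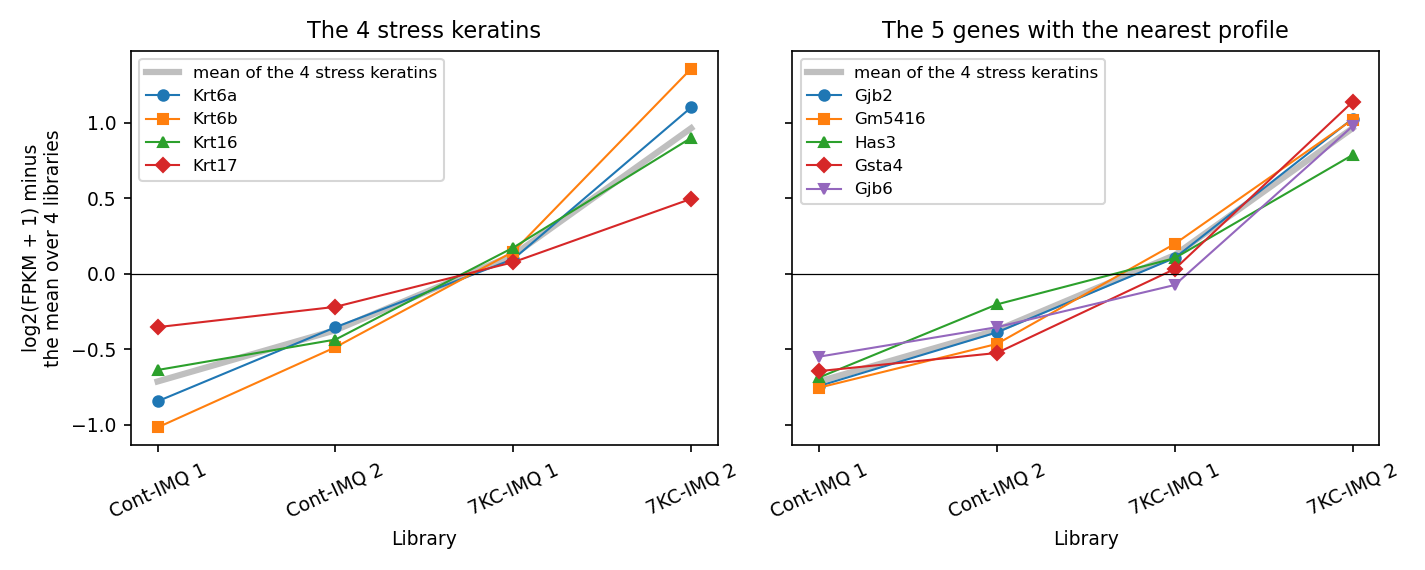
Values of log2(FPKM + 1) minus the gene's mean over the libraries (vertical axis) for the 4 stress keratins and for the 5 genes with the nearest profile, by library, with the mean profile of the stress keratins in grey; lines only join the values of a gene. *Krt17* has the flattest profile, and *Gjb2* follows the grey line at a distance of 0.074.

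Gene models that share sequence with *Krt6* were low in every library. *Gm5414* had 0.939 and 0.678 FPKM in Cont-IMQ and 1.09 and 2.54 FPKM in 7KC-IMQ, and *Gm5478* had 0.0706 and 0.190 FPKM in Cont-IMQ and 0.660 and 0.859 FPKM in 7KC-IMQ. Both were higher in 7KC-IMQ without overlap, as *Krt6a* and *Krt6b* were, at levels of at most 2.54 FPKM beside at least 240 FPKM.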

How the data were processed

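RNA of dorsal skin was sequenced in 4 libraries, 2 of Cont-IMQ and 2 of 7KC-IMQ. Per the study's methods, 75-base single-end reads were mapped to mm10 using TopHat, Bowtie2 and SAMtools. Per the submitters' processing notes these were TopHat2 2.1.1, Bowtie2 2.2.8 and SAMtools 0.1.18 with Cuffdiff 2.2.1, while the methods name Cufflinks and other versions. The authors deposited FPKM values, scaled by them to mapped reads and gene length, with 1 value per symbol and library. The treatment of multi-mapping reads and the strand setting are not given in the sources used here. No counts were given, so no count model was used.

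Genes with a mean of at least 0.1 FPKM (15896) were compared on log2(FPKM + 1) with limma 3.58.1 in R 4.3.3 (variance trend, Benjamini-Hochberg at 0.05), which was tested on simulated data. A fold on this scale understates changes of low genes. Sums and ratios were compared by exact permutation tests. Sequences, gene positions and 75-base windows came from GENCODE (GRCm38), read with Python 3.11.15 and aligned with Biopython 1.88. Depth was estimated from genes with a single transcript and an assumed fragment length of 200 bases, with 73% to 78% of low values within 0.1 of a whole read.

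Members, lists and tests were chosen with earlier results of these data known. Named were the 4 members, 7 comparison keratins, up to 3 largest differences each way per list among genes with a mean of at least 1 FPKM, and the 5 genes nearest in profile. *Krt79*, *Krt80*, *Krt23*, *Krt84* and *Krt71* and the gene models sharing sequence were chosen as members of these lists or for that sequence. *Cxcr2*, *Tgfa*, *Epgn*, *Hbegf*, *Areg* and *Il22* were named after their values were seen. Alternatives were the pseudocount, the filter, other scalings, the variance trend, the replicate block and leaving out each library.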

Additional observations from a re-analysis of the deposited data

How the results depend on the processing

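Across 12 alternatives all 48 differences of the members stayed positive, and of 43 sums and ratios 0 reversed. Most of these directions were fixed in advance. The filter, the variance trend and the replicate block leave a difference as it is. A pseudocount keeps the order of libraries, and leaving out a library cannot reverse groups that do not overlap. Only the other scalings, or for ratios another way of averaging, could have changed a direction. With all 4 libraries kept, no member passed the adjusted threshold (limma adjusted p 0.322 to 0.659). The count of genes past the threshold went from 1 to 2 with a pseudocount of 0.1, to 71 with no filter on low values, and from 1 to 11 when a library was left out. With a library left out, differences in log2(FPKM + 1) ranged from 0.70 to 1.70 in *Krt6a*, 0.90 to 2.11 in *Krt6b*, 0.71 to 1.44 in *Krt16* and 0.36 to 0.78 in *Krt17*. The log2 sum of all 4 ranged from 0.59 to 1.31. In the other alternatives the lowest *Krt17* difference was 0.40, under quantile normalization. At an unadjusted p under 0.05, 4 members passed in the fit reported, 3 under quantile normalization, 0 with no filter, 0 without Cont-IMQ replicate 1, 3 without Cont-IMQ replicate 2 and 2 without 7KC-IMQ replicate 2. The cause was not tested. The replicate block left the count at 1 and *Krt16* at 1.07 (limma adjusted p = 0.400) and changed no call; deviations of same-numbered libraries correlated at r = 0.065 across 15896 genes, which are not independent, so the numbers were not treated as pairs. Depth limits low genes such as *Gm5478*, not the members.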
